A study of Homo sapiens with 8 samples.

Results

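The 39 genes described here encode proteins that prevent, unwind or digest R-loops, or that package, export and degrade nuclear RNA. They were taken as a list of symbols, drawn up with earlier results of these data known. All 39 were found among the 35113 genes of the estimated counts and all passed the filter on low counts, in a set of 15221 genes tested. They comprised 12 helicases, 4 RNase H genes, 3 genes of topoisomerases and a partner, 8 genes of the THO complex and RNA export, 8 genes of the exosome and XRN2, and 4 further genes (the FACT subunits SUPT16H and SSRP1, METTL3 and USP11). One of them, DDX39B, was not quantified alike in the 2 cell lines and was set apart, so counts below are of 38 genes.

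RNA was sequenced from the HPV- resistant clone SCC411 and its parental line UPCISCC89 (SCC89), and from the HPV+ resistant clone SCC35 and its parental line UDSCC2 (SCC2), both established lines of head and neck squamous cell carcinoma. Each group had 2 polyA libraries, 8 in all, with 20250246 to 27341284 read pairs per library. Each resistant group was 1 clone grown from a single cell after long exposure to escalating cisplatin and then kept without the drug, and the HPV+ line was selected at higher doses, so that clone, dose, line and HPV status cannot be told apart. Whether the paired libraries of each group derive from distinct cultures is not stated, so the p-values measure the spread between these libraries alone, which may be technical.

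An R-loop is a stretch of nascent RNA paired with the template DNA strand, which leaves the other DNA strand single. Cells keep R-loops low by coating and exporting RNA as it is made (THO, ALYREF, DDX39A and DDX39B), by relieving negative supercoils (topoisomerases), by unwinding the hybrid (helicases) and by cutting its RNA strand (RNase H). The exosome and XRN2 degrade RNA that is not exported, and FACT opens chromatin ahead of the polymerase. R-loops that persist can block replication forks and break DNA.

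All 8 squamous epithelial markers examined, among them KRT5 and TP63, were above 1 CPM in every group (CPM is the read count of a gene relative to the scaled size of its library). Of the markers of other cell types, PTPRC, CD3E, PECAM1, CDH5 and VWF reached at most 0.499 CPM in any library, while CD68 reached 155 CPM in the HPV- parental line and DCN 119 CPM in the HPV+ parental line. The squamous markers summed to 3947 to 4900 CPM in the HPV- clone, against 14693 to 15079 CPM in its parental line, and in that clone 6 of 8 fell and 1 rose. The same markers in the HPV+ line summed to 4629 to 5675 CPM in the clone and 4966 to 5271 CPM in the parental cells, and in that clone 2 of 8 rose and 2 fell. The 12 markers of other cell types summed to 51.5 to 84.3 CPM in the HPV- clone, against 157 to 161 CPM in its parental line, and to 41.7 to 62.5 CPM in the HPV+ clone, against 126 to 143 CPM in its parental line. Of the 6 of these that were tested, 2 rose and 1 fell in the HPV- clone, and 0 rose and 1 fell in the HPV+ clone. CD68 made up most of the HPV- sum, at 33.4 and 66.0 CPM in the clone, against 155 and 150 CPM in the parental line, and DCN the largest part of the HPV+ sum, at 43.6 and 20.03 CPM in the clone, against 99.4 and 119 CPM in the parental line. Other markers went the other way in the HPV- clone. COL1A1 had 8.36 and 7.33 CPM there, against 4.27 and 3.65 CPM in the parental line. COL1A2 had 3.68 and 4.44 CPM, against 0.427 and 1.08 CPM, and ACTA2 3.73 and 4.69 CPM, against 0.320 and 0.631 CPM. MYH11 overlapped between these groups, and PDGFRB reached at most 0.302 CPM in any library. The part of these shifts in the results below was not tested. In bulk RNA, fewer cells of a kind and less RNA per cell cannot be told apart.

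In the HPV- clone 14 of 38 genes fell and 0 rose. The falls included the exosome ring and cap subunits EXOSC2, EXOSC3, EXOSC4, EXOSC8 and EXOSC9, and the export factors ALYREF, DDX39A and THOC5. The others were the helicases DDX19A, DDX21, DDX41 and PIF1, the RNase H2 subunit RNASEH2C and the FACT subunit SSRP1. A gene was called higher or lower at an adjusted p under 0.05 in edgeR's quasi-likelihood test, and differentially expressed where its log2 fold change also lay beyond 1. The 14 genes were 36.8% of those compared, against 14.1% of all genes called lower and 12.8% called higher. The list was drawn up with earlier results of these data known, so this share and those by role below do not test the group. On the further list of these complexes described below, 12.5% of 40 genes fell and 2.5% rose. Of the 38 genes, 7 (18.4%) were differentially expressed and lower, where 5.22% of all genes were lower and 6.06% higher by that criterion. The median log2 fold change was -0.41 over the 38 genes and 0.04 over all genes tested, and 32 of the 38 lay below 0. An unadjusted p under 0.05 was reached by 1 higher gene (TDRD3) and 20 lower ones, and DESeq2 called 0 higher and 18 lower.

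In the HPV+ clone 4 of 38 genes fell, ALYREF, DDX39A, THOC6 and RNASEH2C, and 2 rose, RNASEH2B and TDRD3. The falls were 10.5% of the genes, the same share as the 10.5% of all genes called lower, and the rises were 5.26%, against 7.65% of all genes. By the fold criterion 3 genes were lower (7.89%, against 4.6% of all genes) and 0 higher (against 3.4%). At an unadjusted p under 0.05 there were 6 higher and 6 lower, and DESeq2 called 4 higher and 6 lower. The median log2 fold change was 0.08, against 0.00 over all genes.

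**Figure D1:**
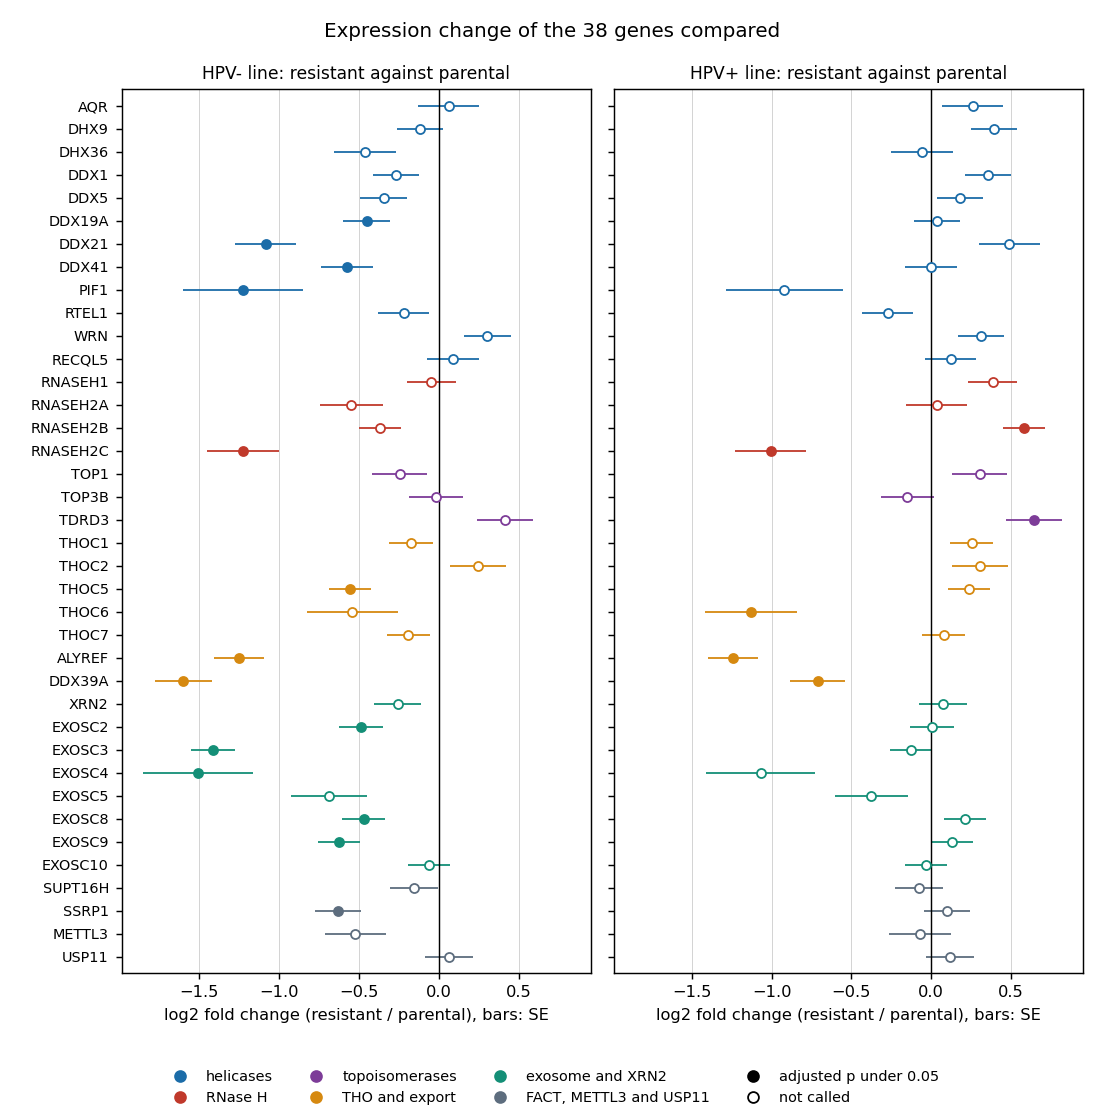
Log2 fold change of 38 genes in the HPV- clone (left panel) and in the HPV+ clone (right panel) relative to their own parental lines, from edgeR, with bars for the standard error and colours for the role. Filled points passed an adjusted p of 0.05: 14 lie left of 0 and 0 right of it in the HPV- panel, and 4 left and 2 right in the HPV+ panel.

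Genes lower in both clones were ALYREF, DDX39A and RNASEH2C, which make up 3 of the 14 genes lower in the HPV- clone (21.4%) and 3 of the 4 lower in the HPV+ clone (75%). Over all genes, 427 were lower in both clones, 19.96% of those lower in the HPV- clone and 26.8% of those lower in the HPV+ clone. The 75% rests on few calls. Of ALYREF, DDX39A and RNASEH2C, only ALYREF kept its HPV+ call under all 18 alternatives described below. Over protein-coding transcripts alone, the HPV+ log2 fold change of RNASEH2C was -0.03. The promoters of ALYREF, DDX39A and RNASEH2C are shown because these genes fell in both clones. Each window holds the 250 bases before the RefSeq start (build GRCh38.p14, minus strand), with capitals for matches to any of 5 motifs on either strand: the ETS motif CCGGAAG, the CCAAT box, the E-box CACGTG, the NRF1 core GCATGCGC and the TATA box TATAAA. The lines below are ALYREF at chr17:81891588-81891837, DDX39A at chr19:14419384-14419633 and RNASEH2C at chr11:65720799-65721048.
ALYREF: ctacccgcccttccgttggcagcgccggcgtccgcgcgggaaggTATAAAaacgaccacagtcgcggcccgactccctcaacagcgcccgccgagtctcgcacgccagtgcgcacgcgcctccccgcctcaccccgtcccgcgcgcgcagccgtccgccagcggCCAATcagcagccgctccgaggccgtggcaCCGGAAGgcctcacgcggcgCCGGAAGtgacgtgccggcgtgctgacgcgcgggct
DDX39A: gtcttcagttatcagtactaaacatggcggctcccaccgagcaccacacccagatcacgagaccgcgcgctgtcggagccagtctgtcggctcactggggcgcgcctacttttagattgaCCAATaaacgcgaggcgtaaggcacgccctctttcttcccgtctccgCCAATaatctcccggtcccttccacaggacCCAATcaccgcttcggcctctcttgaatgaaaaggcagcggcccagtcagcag
RNASEH2C: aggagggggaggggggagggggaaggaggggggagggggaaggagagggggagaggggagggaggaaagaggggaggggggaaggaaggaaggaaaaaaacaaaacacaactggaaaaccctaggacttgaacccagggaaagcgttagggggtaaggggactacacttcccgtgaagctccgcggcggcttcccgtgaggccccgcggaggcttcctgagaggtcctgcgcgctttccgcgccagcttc
The ALYREF window held 4 matches (2 ETS motifs, 1 CCAAT box and 1 TATA box), the DDX39A window held 3 CCAAT boxes, and the RNASEH2C window, rich in runs of g and a, held 0. The matches shown do not overlap one another. Of the 39 genes, 36 had a RefSeq promoter in the table used. The ETS motif was in 13 of these 36 windows (36.1%) and in 8.82% of all 27305 windows of that length, and the CCAAT box in 16 (44.4%) and 33.0%. The E-box, the NRF1 core and the TATA box were each in 4 windows (11.1%), against 6.49%, 2.81% and 11.1% of all. All windows include those of genes not tested here, and a comparison with tested genes alone was not made. Among the 13 genes with a window that were lower in the HPV- clone, 4 held the ETS motif and 6 the CCAAT box. Over all 36 windows these motifs were in 13 and 16. ALYREF and DDX39A both held the CCAAT box.

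Among the helicases, 4 of 12 fell in the HPV- clone (33.3%, against 14.1% of all genes) and 0 rose (against 12.8%). Their median log2 fold change was -0.31. DDX21, a nucleolar helicase of ribosomal RNA synthesis that also unwinds R-loops, had 144 and 125 CPM in the HPV- clone, against 229 and 340 CPM in the HPV- parental line. Both resistant libraries lay below both parental ones, and the log2 fold change was -1.08 ± 0.19 (SE, adjusted p = 0.00307). The order in the HPV+ line was the other way round, with 546 and 544 CPM in the clone and 357 and 420 CPM in the parental cells, although this was not called (0.49 ± 0.19, adjusted p = 0.102). Of 12 annotated DDX21 transcripts, 2 were listed, and DDX21-201 held at least 94.7% of its TPM in every library.

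PIF1, a DNA helicase that unwinds G-quadruplexes and hybrids, had 14.7 and 13.1 CPM in the HPV- clone, against 46.9 and 18.2 CPM in the HPV- parental line. The groups did not overlap, but the parental libraries were 2.57 times apart. Its log2 fold change was -1.23 ± 0.38 (adjusted p = 0.0437), and without HPV- parental replicate 1 it was -0.40 (adjusted p = 0.185), 1 of 11 alternatives of 18 under which the call was lost. Without HPV- parental replicate 2 it was -1.83. PIF1 in the HPV+ line had 21.1 and 20.6 CPM in the clone and 43.6 and 35.2 CPM in the parental cells, separate but not called (-0.92 ± 0.37, adjusted p = 0.122).

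DDX41, a helicase of the spliceosome, had 56.8 and 70.9 CPM in the HPV- clone, against 105 and 85.3 CPM in the HPV- parental line. The log2 fold change was -0.57 ± 0.16 (adjusted p = 0.0268), and the call was lost over protein-coding transcripts alone (-0.43, adjusted p = 0.107). It was also lost without HPV- resistant replicate 1 (adjusted p = 0.173) and without HPV- parental replicate 1 (adjusted p = 0.0836). The fourth helicase to fall, DDX19A, acts in export at the nuclear pore and shares near-identical sequence with DDX19B, so its log2 fold change of -0.45 ± 0.14 (adjusted p = 0.0412) is uncertain.

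DHX9, which unwinds hybrids and structured RNA, had the smallest p among helicases in the HPV+ line, with 354 and 329 CPM in the clone and 253 and 267 CPM in the parental cells. The groups were separate but the log2 fold change of 0.39 ± 0.15 was not called (adjusted p = 0.088). Separation of 2 libraries from 2 means little by itself. In the HPV+ line RNASEH2A (0.03 ± 0.19) and EXOSC10 (-0.03 ± 0.13) were separate too. DHX9 in the HPV- line had 395 and 362 CPM in the clone and 374 and 447 CPM in the parental cells, which overlap. Of the 12 helicases, 0 were called in the HPV+ clone, where 10.5% of all genes were lower and 7.65% higher. An unadjusted p under 0.05 was reached by 3 higher and 1 lower, and DESeq2 called 2 higher and 1 lower.

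For the other helicases the log2 fold changes in the HPV- clone lay between -0.46 (DHX36, which unwinds G-quadruplexes) and 0.30 (WRN, the RecQ helicase mutated in Werner syndrome). AQR, an intron-binding helicase of the spliceosome, was at 0.06. DDX5, a helicase and transcription coactivator, was the most abundant of the 38 genes in every group, at 431 ± 4.38 TPM in the HPV- clone and 596 ± 146 TPM in its parental line (mean ± SD, n = 2). TPM is scaled by transcript length, so that levels of different genes can be compared. The HPV+ clone had 840 ± 24.1 TPM of DDX5 and its parental line 807 ± 78.8 TPM. At least 65.4% of this TPM in each library came from transcripts that are not annotated as protein coding. RTEL1, a helicase of telomeres, and RECQL5, which binds RNA polymerase II, were at -0.22 and 0.09 in the HPV- clone and -0.27 and 0.12 in the HPV+ clone. Of 21 RTEL1 transcripts 15 were listed, and its reads cannot be told apart from those of a readthrough transcript into the next gene.

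Of the 4 RNase H genes, RNASEH2C fell in both clones and RNASEH2B rose in the HPV+ clone. Thus 1 of 4 (25%) fell in each clone, against 14.1% of all genes in the HPV- clone and 10.5% in the HPV+ clone. In the HPV+ clone 1 of 4 rose, against 7.65% of all genes, and in the HPV- clone 0 did, against 12.8%. Shares of so few genes rest on single calls. RNASEH1 is a single enzyme that digests the RNA of hybrids, while RNase H2 has the catalytic subunit RNASEH2A and the structural subunits RNASEH2B and RNASEH2C. Mutations in any of these RNase H2 genes can cause Aicardi-Goutières syndrome. RNASEH2C had 60.9 and 70.0 CPM in the HPV- clone, against 193 and 113 CPM in the HPV- parental line. Its HPV+ levels were 28.7 and 27.2 CPM in the clone, against 59.3 and 53.1 CPM in the parental cells. Every resistant library lay below both parental libraries of its line. The log2 fold changes were -1.23 ± 0.22 (adjusted p = 0.00354) in the HPV- clone and -1.01 ± 0.22 (adjusted p = 0.0136) in the HPV+ clone. The HPV- value was -0.80 without HPV- parental replicate 1.

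Most of the RNASEH2C signal did not come from coding transcripts. In the HPV- clone transcripts other than protein-coding ones held 70.1% and 79.2% of its TPM, against 82.9% and 80.2% in the HPV- parental line. In the HPV+ clone they held 72.3% and 49.1%, against 80.2% and 91.3% in the HPV+ parental line. The retained-intron transcript RNASEH2C-206 was at 0 TPM in both libraries of the HPV+ clone, against 14.4 and 11.3 TPM in its parental line. Summed over protein-coding transcripts, RNASEH2C had 7.55 and 11.2 TPM in the HPV+ clone and 12.6 and 6.40 TPM in the HPV+ parental line, so that the groups overlapped. In a fit restricted to protein-coding transcripts, chosen after values were seen, the HPV+ log2 fold change was -0.03 (adjusted p = 0.984). The coding transcripts in the HPV- line had 16.7 and 17.7 TPM in the clone, against 31.1 and 27.5 TPM in the parental cells, with a log2 fold change of -0.98 that also missed the threshold (adjusted p = 0.0945). Its other transcripts, most of them with retained introns or marked for nonsense-mediated decay, summed to 19.7 and 10.8 TPM in the HPV+ clone, against 50.9 and 67.5 TPM in the HPV+ parental line. The HPV+ call was also lost without HPV+ parental replicate 1 (adjusted p = 0.106) and without HPV+ resistant replicate 1 or 2 (adjusted p = 0.0654 and 0.0879).

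**Figure D2:**
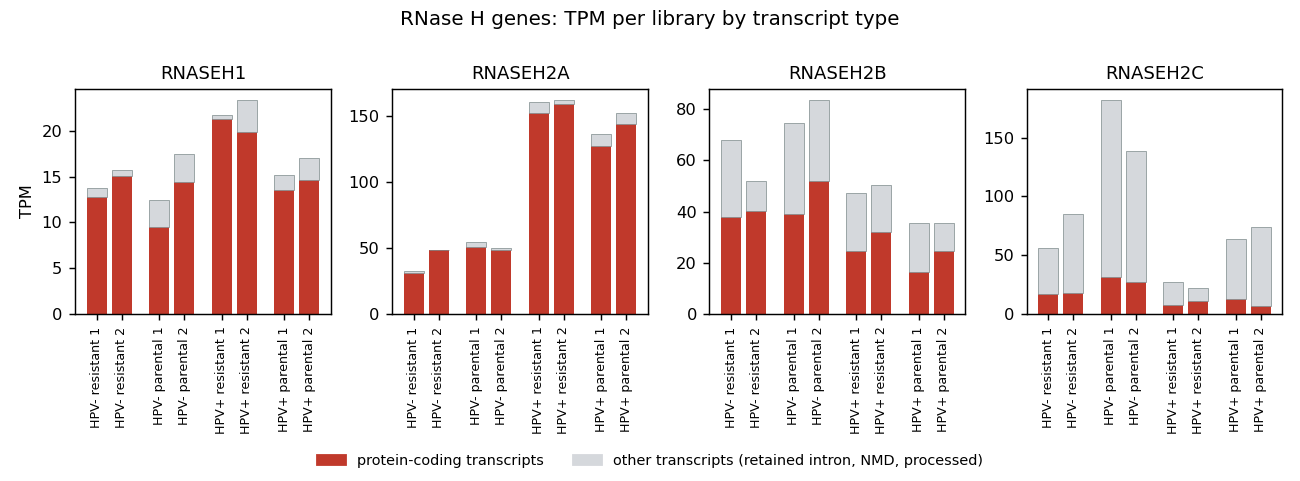
TPM of the 4 RNase H genes in each of the 8 libraries, stacked as protein-coding transcripts (red) and all other transcripts (grey), with each clone left of its parental line. The red part of the RNASEH2C bars is 7.55 and 11.2 TPM in the HPV+ clone and 12.6 and 6.40 TPM in the HPV+ parental line, while the grey part is 19.7 and 10.8 TPM in the clone and 50.9 and 67.5 TPM in the parental line.

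RNASEH2B rose in the HPV+ clone. It had 45.0 and 47.9 CPM there, against 29.3 and 32.6 CPM in the HPV+ parental line, with a log2 fold change of 0.58 ± 0.13 (adjusted p = 0.0139). In the HPV- line it had 53.5 and 51.7 CPM in the clone and 69.2 and 66.4 CPM in the parental cells, which was not called (-0.37 ± 0.13, adjusted p = 0.0619). The HPV+ call was lost over coding transcripts (0.51, adjusted p = 0.064), with an offset for transcript length (0.38, adjusted p = 0.185) and without either library of either HPV+ group (adjusted p = 0.0597 to 0.174). RNASEH2A had log2 fold changes of -0.55 ± 0.20 (adjusted p = 0.0635) in the HPV- clone and 0.03 ± 0.19 (adjusted p = 0.934) in the HPV+ clone, and RNASEH1 -0.05 ± 0.15 and 0.38 ± 0.15, not called in either.

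The TPM ratio of RNASEH2C to RNASEH2B was 0.577 and 0.436 in the HPV+ clone, against 1.79 and 2.07 in the HPV+ parental line. The same ratio in the HPV- line was 0.819 and 1.64 in the clone and 2.45 and 1.66 in the parental cells. Over protein-coding transcripts the RNASEH2C to RNASEH2B ratio was 0.305 and 0.351 in the HPV+ clone and 0.779 and 0.262 in the HPV+ parental line, which overlap, and 0.443 and 0.440 in the HPV- clone and 0.798 and 0.528 in the HPV- parental line. Over all transcripts there was 3.41 and 3.21 times as much RNASEH2A as RNASEH2B in the HPV+ clone, against 3.86 and 4.27 in the HPV+ parental line. This ratio in the HPV- line was 0.480 and 0.944 in the clone and 0.730 and 0.601 in the parental cells.

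Of the topoisomerase genes 0 of 3 were called in the HPV- clone, where 14.1% of all genes were lower and 12.8% higher. TDRD3 rose in the HPV+ clone (1 of 3, against 7.65% of all genes). In the HPV- clone 1 (TDRD3) was higher by an unadjusted p under 0.05, 0 were lower, and DESeq2 called 0. TDRD3, the partner that brings topoisomerase TOP3B to active genes, had 19.0 and 19.6 CPM in the HPV+ clone, against 12.9 and 11.8 CPM in the HPV+ parental line. The log2 fold change was 0.64 ± 0.17 (adjusted p = 0.0303), and the call was lost under 6 of 18 alternatives. These were each of the 4 HPV+ libraries left out (adjusted p up to 0.216), the transcript length offset (adjusted p = 0.0691) and the GC and length offset, under which it was 0.42 (adjusted p = 0.0689). TDRD3 in the HPV- line was again higher in each resistant library, at 20.1 and 17.8 CPM in the clone and 13.0 and 15.5 CPM in the parental cells, without being called (0.41 ± 0.18, adjusted p = 0.108). TOP1, which relaxes supercoils around the polymerase, had 293 and 247 CPM in the HPV- clone and 269 and 371 CPM in the HPV- parental line, an overlap. It had 141 and 142 CPM in the HPV+ clone and 108 and 121 CPM in the HPV+ parental line (0.30 ± 0.17, adjusted p = 0.253). TOP3B was at -0.02 in the HPV- clone and -0.15 in the HPV+ clone.

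In each clone 3 of 7 THO and export genes fell (42.9%) and 0 rose, with ALYREF and DDX39A lower in both. Of all genes, 14.1% were lower and 12.8% higher in the HPV- clone, and 10.5% were lower and 7.65% higher in the HPV+ clone. ALYREF, the adaptor that hands messenger RNA to the export receptor (GENCODE gene ENSG00000183684, chr17:81887835-81891586, GRCh38), had 57.8 and 65.2 CPM in the HPV- clone, against 159 and 134 CPM in the HPV- parental line. In the HPV+ line it had 92.1 and 75.7 CPM in the clone, against 203 and 194 CPM in the parental cells. Every resistant library lay below both parental ones, and the log2 fold change was -1.25 ± 0.16 (adjusted p = 0.000533) in the HPV- clone and -1.24 ± 0.16 (adjusted p = 0.000881) in the HPV+ clone. The difference between these 2 changes was 0.01 ± 0.22 on the log2 scale. ALYREF was the only one of the 6 genes called in the HPV+ clone that kept its call under all 18 alternatives, with a largest adjusted p of 0.0145.

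DDX39A, a helicase of RNA export (ENSG00000123136, chr19:14408798-14419383), had 58.4 and 75.0 CPM in the HPV- clone, against 230 and 175 CPM in the HPV- parental line. The log2 fold change was -1.60 ± 0.18 (adjusted p = 0.000316), the most negative of the 38 genes. DDX39A in the HPV+ line had 150 and 158 CPM in the clone, against 261 and 243 CPM in the parental cells, a log2 fold change of -0.71 ± 0.17 (adjusted p = 0.0195) whose call was lost without any 1 of the 4 HPV+ libraries (adjusted p up to 0.13). The libraries of clone and parental cells were separate in both lines. Its protein-coding transcript DDX39A-203 was at 0 TPM in all 4 resistant libraries, against 3.62 and 8.07 TPM in the HPV- and 7.02 and 12.3 TPM in the HPV+ parental libraries, while the main transcript DDX39A-201 held 61.5% and 61.6% of the gene's TPM in the HPV- clone, against 70.2% and 75.5% in its parental line.

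DDX39B, its near-identical paralog in the major histocompatibility region of chromosome 6, could not be compared. It was listed with 3 of 21 annotated transcripts. These held 0 reads in 3 of the HPV- libraries and 80.5 in the other, while the transcript DDX39B-202 alone held 5318 to 5784 reads in the HPV+ libraries. Transcripts without a match in the annotation but of the same lengths, 1681, 4027 and 5158 bases, held reads in all 8 libraries, for example 1893 to 2226 in the HPV- libraries at 4027 bases. Whether these are copies of DDX39B on other haplotypes was not tested, and no value of DDX39B is read here. Reads shared between DDX39A and DDX39B may also be split differently in the 2 lines.

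Of the listed subunits of the THO complex itself, which assembles on nascent RNA (THOC1, THOC2, THOC5, THOC6 and THOC7), 1 was called in each clone. The shares of all genes called were 14.1% lower and 12.8% higher in the HPV- clone, and 10.5% and 7.65% in the HPV+ clone. THOC6 fell in the HPV+ clone, with 43.3 and 42.2 CPM there, against 102 and 84.7 CPM in the HPV+ parental line (-1.13 ± 0.29, adjusted p = 0.0287). In the HPV- line its libraries overlapped, with 64.1 and 89.1 CPM in the clone and 147 and 76.3 CPM in the parental cells (-0.54 ± 0.29, adjusted p = 0.194). The HPV+ call was lost without any 1 of the 4 HPV+ libraries (adjusted p = 0.0719 to 0.165). THOC5 fell in the HPV- clone, with 26.1 and 27.7 CPM there, against 39.5 and 39.8 CPM in the HPV- parental line (-0.56 ± 0.13, adjusted p = 0.012). THOC1, THOC2 and THOC7 were not called in either line, and their log2 fold changes ran from -0.19 to 0.24 in the HPV- clone and from 0.08 to 0.31 in the HPV+ clone.

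**Figure D3:**
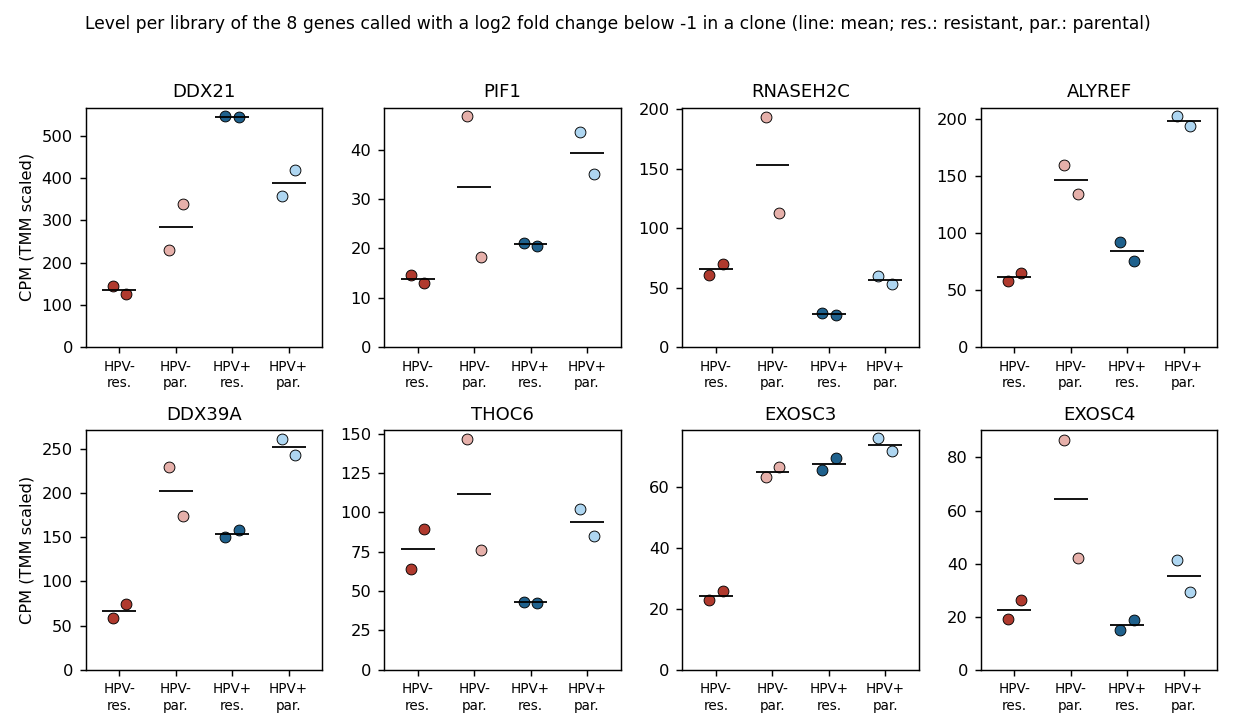
CPM in each library of the 8 genes that were differentially expressed in a clone, with points for libraries, lines for means and each clone left of its parental line (axes start at 0). ALYREF lies at 57.8 and 65.2 CPM in the HPV- clone and 92.1 and 75.7 CPM in the HPV+ clone, below all 4 parental libraries at 134 to 203 CPM, while EXOSC3 is low only in the 2 libraries of the HPV- clone, at 22.9 and 25.8 CPM.

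The exosome was the group with the largest share of falls in the HPV- clone. Of 8 genes, 5 fell (62.5%, against 14.1% of all genes) and 0 rose (against 12.8%). All 8 log2 fold changes lay below 0, with a median of -0.56. On the further list described below, the exosome subunits EXOSC1, EXOSC6, EXOSC7 and DIS3 were at -0.37, -0.20, -0.46 and -0.16 there. None of these was called. In the HPV+ clone 0 of the 8 genes of this group were called, where 10.5% of all genes were lower and 7.65% higher. Their median log2 fold change in that clone was -0.01. There an unadjusted p under 0.05 was reached by 1 lower gene, and DESeq2 called 1 lower.

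EXOSC3, a cap subunit that binds RNA at the entry of the channel (ENSG00000107371, chr9:37759234-37832117), had 22.9 and 25.8 CPM in the HPV- clone, against 63.5 and 66.5 CPM in the HPV- parental line. Both resistant libraries were far below both parental ones, with a log2 fold change of -1.41 ± 0.14 (adjusted p = 0.000154). In the HPV+ line it had 65.8 and 69.6 CPM in the clone and 76.0 and 71.8 CPM in the parental cells (-0.13 ± 0.13, adjusted p = 0.537). Its TPM relative to EXOSC2, another cap subunit, was 0.805 and 0.813 in the HPV- clone, against 1.56 and 1.79 in the HPV- parental line. This ratio was also lower in the HPV+ clone, at 1.28 and 1.48, against 1.75 and 1.67 in the HPV+ parental line. Over protein-coding transcripts it was 1.34 and 1.41 in the HPV+ clone, against 2.06 and 1.97 in the HPV+ parental line.

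Transcripts of EXOSC3 took different shares in the HPV+ line, where the gene total was not called. The coding transcript EXOSC3-202 held 22.6% and 25.3% of the gene's TPM in the HPV+ clone, against 44.7% and 44.3% in the HPV+ parental line. EXOSC3-202 in the HPV- line held 21.0% and 15.7% in the clone and 29.2% and 28.9% in the parental cells. These shares are estimates by Salmon of overlapping transcripts and were not tested.

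EXOSC4, a ring subunit, had 19.0 and 26.1 CPM in the HPV- clone, against 86.6 and 42.2 CPM in the HPV- parental line. The groups were separate but the parental libraries were far apart, and the log2 fold change was -1.51 ± 0.34 (adjusted p = 0.0141). Leaving out 1 HPV- parental library gave -0.91 (replicate 1) or -2.01 (replicate 2), and the call was lost without HPV- resistant replicate 1 (adjusted p = 0.0966) and with no filter (adjusted p = 0.0578). EXOSC4 in the HPV+ line had 15.1 and 18.6 CPM in the clone and 41.4 and 29.2 CPM in the parental cells, separate but not called (-1.07 ± 0.34, adjusted p = 0.0648). Of the 40 nearest tested genes on chromosome 8, 16 were also lower in the HPV- clone, where 14.1% of all genes were. Their median log2 fold change was -0.57.

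EXOSC9, another ring subunit, had 30.4 and 33.0 CPM in the HPV- clone, against 49.0 and 48.8 CPM in the HPV- parental line (-0.63 ± 0.13, adjusted p = 0.00724, and 0.0538 without HPV- resistant replicate 1). The coding transcript EXOSC9-201 held 27.8% and 32.7% of its TPM in the HPV- clone, against 50.1% and 49.5% in the HPV- parental line, and EXOSC9-202 held 52.3% and 48.2%, against 27.4% and 34.3%. EXOSC2 and EXOSC8 also fell in the HPV- clone (-0.49 ± 0.14 and -0.47 ± 0.13), although only 11 of 34 and 11 of 37 annotated transcripts of these genes were listed. EXOSC5, a ring subunit, had 49.2 and 54.8 CPM in the HPV+ clone and 73.7 and 61.3 CPM in the HPV+ parental line, separate but not called (-0.38 ± 0.23, adjusted p = 0.285). In the HPV- line it had 18.4 and 22.6 CPM in the clone and 41.7 and 24.5 CPM in the parental cells (-0.69 ± 0.24, adjusted p = 0.0564). EXOSC10, the nuclear catalytic subunit, was at -0.06 in the HPV- clone and -0.03 in the HPV+ clone, and XRN2, the exonuclease of transcription termination, at -0.26 and 0.07.

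Of FACT, METTL3 and USP11, 1 of 4 genes fell in the HPV- clone (25%, against 14.1% of all genes). In the HPV+ clone 0 of 4 were called, against 10.5% of all genes lower and 7.65% higher. There 0 of the 4 passed an unadjusted p under 0.05 and DESeq2 called 0. SSRP1 had 153 and 176 CPM in the HPV- clone, against 232 and 277 CPM in the HPV- parental line (-0.63 ± 0.15, adjusted p = 0.0103, and 0.0738 without HPV- resistant replicate 1). Its partner SUPT16H overlapped between the same groups, with 372 and 357 CPM in the clone and 364 and 449 CPM in the parental cells. The TPM ratio of SUPT16H to SSRP1 was accordingly 1.58 and 1.34 in the HPV- clone, against 1.08 and 1.03 in the HPV- parental line. SSRP1 in the HPV+ line had 269 and 282 CPM in the clone and 254 and 260 CPM in the parental cells (0.10 ± 0.14, adjusted p = 0.672).

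METTL3, the catalytic subunit of the methyltransferase that marks adenosines of messenger RNA, had 81.1 and 91.2 CPM in the HPV- clone and 151 and 97.1 CPM in the HPV- parental line, separate but not called (-0.52 ± 0.19, adjusted p = 0.0676). USP11 encodes a deubiquitinase known as a regulator of R-loops. It had 84.4 and 95.3 CPM in the HPV- clone and 80.0 and 91.8 CPM in the HPV- parental line, which overlap (0.06 ± 0.15, adjusted p = 0.792). In the HPV+ line it had 57.9 and 49.6 CPM in the clone and 47.1 and 51.9 CPM in the parental cells, which also overlap (0.12 ± 0.15, adjusted p = 0.625).

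A difference between the lines was tested as the HPV+ change minus the HPV- change. It was called for 8 of 38 genes (21.1%), all higher, against 8.16% of all genes higher and 8.57% lower. The 0 genes called lower compare with 0 at an unadjusted p under 0.05 and 0 by DESeq2, and 35 of the 38 differences lay above 0, with a median of 0.43 (-0.03 over all genes). DDX21 differed most, by 1.57 ± 0.27 on the log2 scale (adjusted p = 0.00373), followed by EXOSC3 at 1.29 ± 0.19 (adjusted p = 0.00159) and RNASEH2B at 0.95 ± 0.19 (adjusted p = 0.00682). The others were DDX39A, THOC5, EXOSC9, SSRP1 and EXOSC8, between 0.68 and 0.89. For DDX39A both changes were falls and the HPV- one was larger. ALYREF (0.01), RNASEH2C (0.22) and EXOSC4 (0.44) were not called. Without any 1 of the 4 HPV+ libraries, or without HPV- resistant replicate 1, 3 differences were called, and without HPV- parental replicate 1 or 2 there were 12 and 14.

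**Figure D4:**
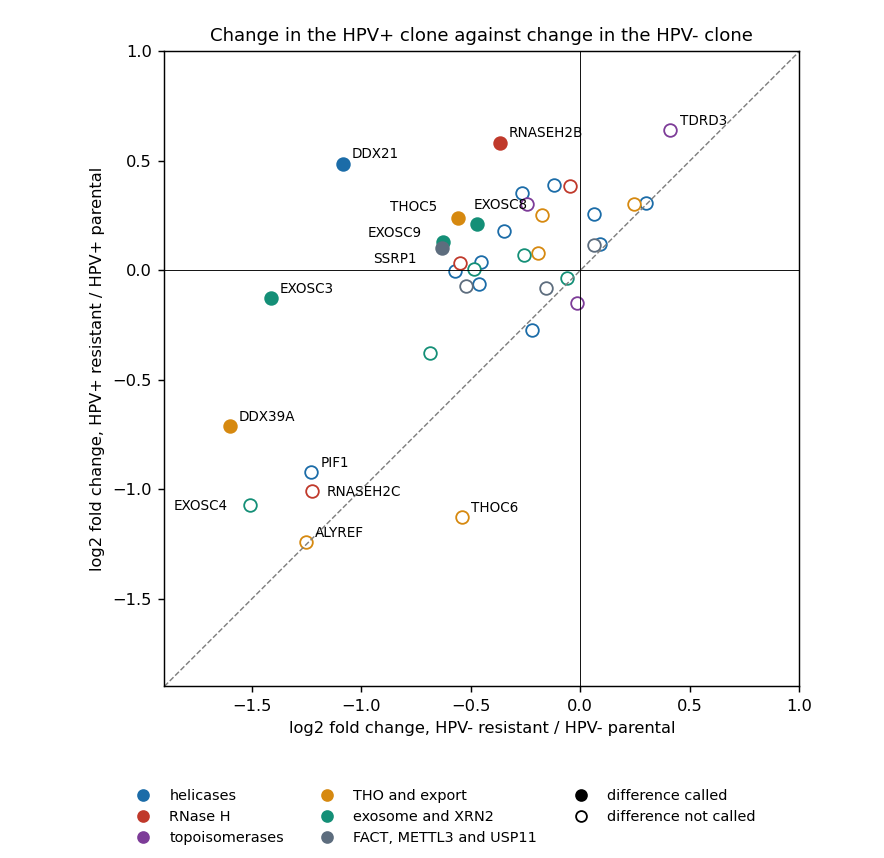
Log2 fold change of 38 genes in the HPV+ clone (vertical axis) against that in the HPV- clone (horizontal axis), each relative to its own parental line, with the dashed line where both are equal. Filled points are the 8 genes whose difference was called, all above the line, and ALYREF lies on it at -1.25 and -1.24.

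Before selection the lines already differed for many of these genes. HPV+ parental cells were higher for 11 of 38 genes and lower for 13 compared with HPV- parental cells, which is 28.9% and 34.2%, against 28% and 30% of all genes. The shares are near those of all genes. TOP1 had 108 and 121 CPM in the HPV+ parental line, against 269 and 371 CPM in the HPV- parental line (-1.48 ± 0.18, adjusted p = 4.59e-05). RNASEH2B had 29.3 and 32.6 CPM in HPV+ parental cells, against 69.2 and 66.4 CPM in HPV- parental cells (-1.13 ± 0.13, adjusted p = 4.12e-05). WRN had 76.5 and 86.3 CPM in HPV+ parental cells, against 33.6 and 37.3 CPM in HPV- parental cells (1.20 ± 0.15, adjusted p = 5.74e-05). In each of these genes the groups were far apart.

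Of the RNase H2 subunits, RNASEH2A was higher in the HPV+ parental line (1.28 ± 0.20, adjusted p = 0.000271) while RNASEH2C was lower (-1.45 ± 0.22, adjusted p = 0.000304). DDX1, a helicase that unwinds hybrids, and EXOSC5 were higher in the HPV+ parental line by 1.05 ± 0.15 and 1.03 ± 0.23 (EXOSC5 by 0.65 without HPV- parental replicate 2), and METTL3 (-1.16 ± 0.19), XRN2 (-0.88 ± 0.15), THOC2 (-0.81 ± 0.18), AQR (-0.80 ± 0.19) and USP11 (-0.79 ± 0.15) were lower. USP11 thus differed between the parental lines and was not called between either clone and its parental line. By role, 5 helicases were higher (41.7%, against 28% of all genes) and 3 lower (25%, against 30%). Of FACT, METTL3 and USP11, 0 were higher (0 at an unadjusted p under 0.05, 0 by DESeq2) and 3 lower (75%). Without HPV+ parental replicate 1 or 2, 5 and 6 of 38 genes were higher in place of 11.

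**Figure D5:**
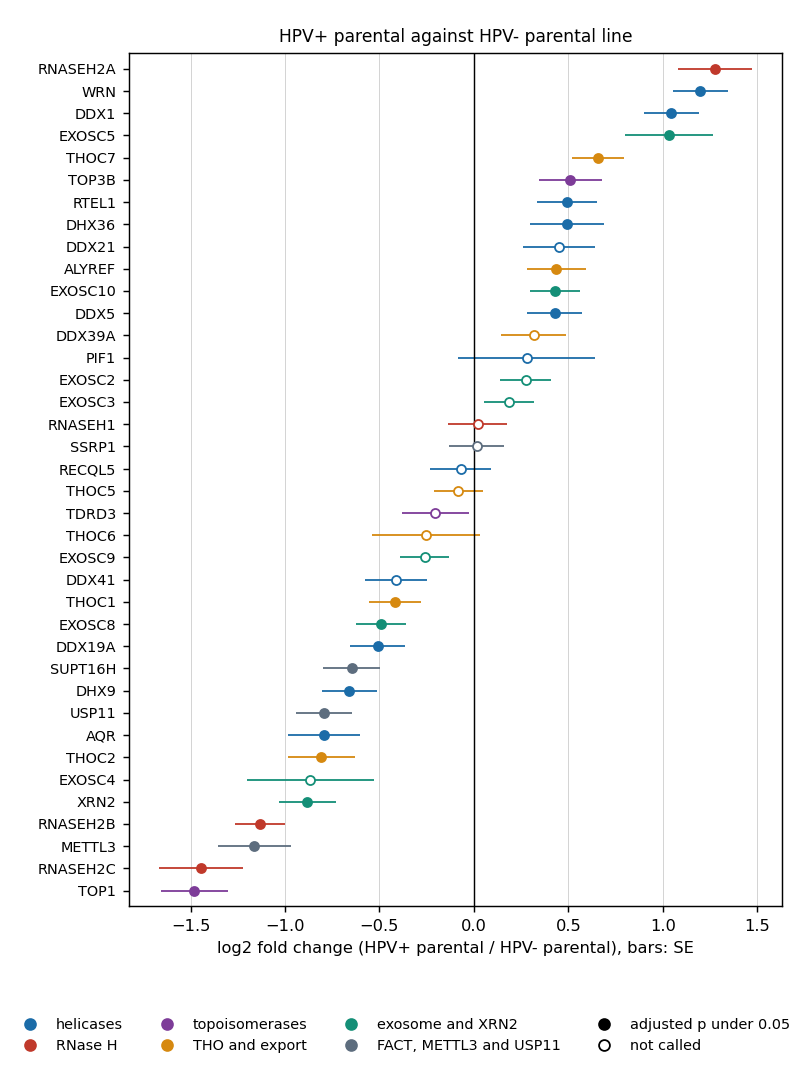
Log2 fold change of HPV+ parental over HPV- parental cells for 38 genes, sorted, with bars for the standard error and colours for the role. The 11 filled points right of 0 run up to RNASEH2A at 1.28, and the 13 filled points left of 0 run down to TOP1 at -1.48.

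The other genes of these complexes, were a further list of 41 from general knowledge, with 40 tested. In the HPV- clone 5 fell (12.5%, against 14.1% of all genes) and 1 rose (2.5%, against 12.8%). These were the helicases DDX23 (-0.78 ± 0.13) and RECQL4 (-1.44 ± 0.27), the mitochondrial topoisomerase TOP1MT (-0.77 ± 0.15) and the export factors FYTTD1 (-0.73 ± 0.17) and SARNP (-0.73 ± 0.13), while RMI2, a partner of the BLM helicase, rose (0.51 ± 0.15). In the HPV+ clone 0 of 40 were called, where 10.5% of all genes were lower and 7.65% higher. An unadjusted p under 0.05 was reached by 2 higher and 2 lower genes there, and DESeq2 called 1 of each. SARNP, which binds DDX39B and ALYREF, had 35.8 and 37.9 CPM in the HPV- clone, against 63.9 and 57.9 CPM in the HPV- parental line.

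Library and gene properties moved with some of these results. The HPV- parental libraries differed by more than 1.5 times for 6 of 38 genes (PIF1, RNASEH2C, THOC6, EXOSC4, EXOSC5 and METTL3), and replicate 1 was the higher in all 6. Only RNASEH2A differed as much between the libraries of the HPV- clone (1.51 times) and 0 genes did in the HPV+ groups. Without HPV- resistant replicate 1, 5 genes fell in the HPV- clone in place of 14, and without HPV- parental replicate 2, 19 fell. Without an HPV+ library of either group, 0 genes rose in the HPV+ clone and 1 or 2 fell. Over all genes, the median log2 fold change in the HPV+ clone was 0.22 in the lowest and -0.31 in the highest of 5 equal groups by GC content, and the 4 genes that fell there had a median GC content of 58.8%, against 45.6% for the 32 not called. In the HPV- clone it was -0.19 in the shortest and 0.23 in the longest of 5 equal groups by length, and the 14 genes that fell had a median length of 1566 bases, against 2447 for the 24 not called. By length the HPV+ clone ran likewise, with medians of -0.23 and 0.19, and the 4 genes that fell there had a median length of 1285 bases, against 2315 for the 32 not called. By GC content the HPV- medians ran between 0.07 and 0.01, and the 14 genes that fell had a median GC content of 53.0%, against 43.9% for those not called. With an offset for GC content and length, chosen after values were seen, 21 genes fell and 0 rose in the HPV- clone, and 5 fell and 1 rose in the HPV+ clone. Around RNASEH2C 16 of the 40 nearest tested genes fell in the HPV- clone, with a median of -0.47, and around EXOSC3 8 did (-0.26), around PIF1 and DDX39A 5 each (0.12 and -0.04) and around DDX21 1 (0.03). Around ALYREF 10 of 40 fell in each clone, with medians of -0.16 in the HPV- clone and -0.33 in the HPV+ clone. In the HPV+ clone 10 fell around RNASEH2C (-0.27) and 8 around THOC6 (-0.25). Of all genes tested, 14.1% were lower in the HPV- clone and 10.5% in the HPV+ clone.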

How the data were processed

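The authors prepared polyA libraries, sequenced read pairs and quantified transcripts with Salmon on GRCh38 (per the submitters' processing notes). The Salmon version and annotation release were not given in the sources used here. Per gene, the deposited estimated counts (unscaled expected read pairs per transcript) and deposited TPM (scaled by the authors' Salmon run for length and depth) were summed. GENCODE 44 IDs without versions matched 172550 of 187432 transcripts (92.1%), and the rest, with 4.33 to 5.13% of read pairs, were left out.

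Estimated counts were rounded and tested with edgeR 4.0.16 (limma 3.58.1, R 4.3.3): TMM factors, default expression filter, 1 coefficient per group over all 8 libraries, robust quasi-likelihood test, Benjamini-Hochberg adjustment over 15221 genes. Replicates correlated at 0.975 to 0.988 and differed beyond sampling noise. The test was tried on simulated counts. Alternatives were RLE and upper-quartile factors, DESeq2 1.42.0, no filter, at least 5 CPM in 2 libraries, a transcript length offset, the replicate number as a block, the 4 libraries of a comparison alone, and each library left out in turn. A GC and length offset, protein-coding transcripts only, and setting DDX39B apart were added after values were seen. Where 1 library remained in a group, it was assumed to vary like the other groups.

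The members and lists were chosen with earlier results of these data known. Values per library are given for members differentially expressed in either line, the 2 of each role with the smallest p in each line, the 3 that had the lowest p between lines and between parental cells, and USP11. Other genes with values are outside this rule and were chosen after values were seen. Promoters came from RefSeq. Tables used pandas 2.3.3 with numpy 2.4.6, under Python 3.11.15, and plots matplotlib 3.10.9.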

Additional observations from a re-analysis of the deposited data

Results flagged for a closer look

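For 8 genes the change in the HPV+ clone differed from the change in the HPV- clone by a test of the difference itself (edgeR's quasi-likelihood test with Benjamini-Hochberg adjustment over all genes). On the log2 scale, as HPV+ change minus HPV- change, these were DDX21 at 1.57 (adjusted p = 0.00373), EXOSC3 at 1.29 (adjusted p = 0.00159), RNASEH2B at 0.95 (adjusted p = 0.00682), DDX39A at 0.89 (adjusted p = 0.0327), THOC5 at 0.80 (adjusted p = 0.0161), EXOSC9 at 0.76 (adjusted p = 0.0206), SSRP1 at 0.73 (adjusted p = 0.0345) and EXOSC8 at 0.68 (adjusted p = 0.0319). DDX21, EXOSC3 and RNASEH2B kept this call under all 17 alternatives run for them. EXOSC8 lost it under 10 of 17, among them the GC and length offset (0.41, adjusted p = 0.0696), DDX39A under 7, THOC5 under 6, and EXOSC9 and SSRP1 under 5 each. Groups of 2 libraries were too small for a check of single libraries that stand apart.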

How the results depend on the processing

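Single genes named by the rule gave 552 values under alternatives, of which 0 reversed and 66 lost their call, and 16 of the 31 results kept theirs in all. Of 38 genes, 14 fell in the HPV- clone, and this became 9 with the 4 libraries alone and 5 to 19 with 1 library left out (all genes called: 4081, and 2046 to 4436). In the HPV+ clone 2 rose, which became 9 with 4 libraries alone, 4 with DESeq2, 1 with each of the GC and length offset, the transcript length offset and protein-coding transcripts only, and 0 to 5 with 1 library left out. The 4 that fell there became 7 with 4 libraries and 1 to 6 with 1 left out (all genes: 2759, 5355 with 4 libraries, 1725 with the transcript length offset, 665 to 3940 with 1 left out). The 8 higher differences between lines became 5 with the transcript length offset and 3 to 14 with 1 library left out, and the 0 lower ones 0 to 1 (all genes: 2546, 1687 with that offset, 1238 to 3276). The 11 genes higher in the HPV+ parental line became 7 with that offset and 5 to 12, the 13 lower 10 to 16 (all genes: 8821, and 6833 to 8774). Of the 10 highest genes by TPM, 8 were among the 10 highest by CPM in the HPV- parental line and 6 in each other group. Replicate numbers did not pair the libraries: deviations of clone and parental libraries with the same number correlated at -0.07 in the HPV- and -0.01 in the HPV+ line. With the replicate number as a block, 13 fell in the HPV- clone, 2 rose and 4 fell in the HPV+ clone, 6 differences were higher (DDX39A: adjusted p = 0.0535) and 10 were higher and 13 lower between parental lines. The cause of these shifts was not tested.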
